A study of Mus musculus with 5 samples.

Results

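The cytosolic ribosome is built of a small subunit, which reads the mRNA, and a large subunit, which joins amino acids into protein, and each holds its rRNA together with a set of ribosomal proteins made in near-equal amounts. In mammals the mRNAs of these proteins share a pyrimidine-rich 5′ end, the 5′ terminal oligopyrimidine (TOP) tract, through which mTOR signalling controls their translation. Polyamines, whose synthesis begins with ornithine decarboxylase, bind ribosomes and are needed to make the modified translation factor eIF5A. The genes of these proteins were taken by symbol: Rpl or Rps followed by a number and an optional suffix, together with Rplp0, Rplp1, Rplp2 and Rpsa. Ribosomal S6 kinases and symbols ending in -ps were left out. Of the 18783 genes of the authors' deposited table, 86 met the rule, 50 named for the large and 36 for the small subunit. In the GENCODE M21 annotation, 80 of them are protein coding and 6 are processed pseudogenes (Rpl6l, Rpl32l, Rps4l, Rps3a2, Rps3a3 and Rps12l1), copies of an mRNA pasted back into the genome.

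The RNA came from primary astrocyte cultures of C57BL/6 mouse pups aged P0 to P1, with no transgene or gene deletion named in the labels. Cultures in all 3 groups grew in the same serum-containing medium and were harvested at day 12 in vitro. Control cultures (2 libraries) carry the treatment label Naive. From day 7 in vitro, Aβ cultures (2 libraries) received 1 µM amyloid-β for 5 days, and the Aβ+DFMO culture (1 library) received the same peptide together with 50 µM difluoromethylornithine (DFMO), an inhibitor of ornithine decarboxylase. Polyadenylated RNA was sequenced as read pairs of 75 bases. The question of the series, from its title, is what blocking ornithine decarboxylase does to astrocytes exposed to Aβ. Values per gene are the authors' group means, so no value per library or SD can be given. Where nothing says that libraries came from separate cultures, the p-values measure only a spread between libraries that may be technical. The Aβ+DFMO group, with 1 library, has no such spread of its own. In its comparison with Aβ, the p-values and the errors derived from them take their spread from the other groups.

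The Control libraries had 49676004 and 49020833 reads and the Aβ libraries 46886111 and 105544237, against 4825677 in the Aβ+DFMO library. One read in that library was worth about 7.46 units of the deposited signal. The astrocyte markers Gfap (57209 in Control) and Slc1a3 (37554 in Control) were high, so the labelled cell type was present. Markers of the oligodendrocyte lineage and microglia were present too. Markers of neurons and of fibroblast and mural cells were mixed. Map2 (10827) and Col1a1 (7986) were high in Control, while Nefl (26), Dcn (78) and Lum (18) were low. Acta2, of the fibroblast and mural list, had 65705.5 in Control, above Gfap. Treatment with DFMO, the single library and its low depth coincide in 1 group and cannot be told apart.

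Near-identical copies of these genes held more of the deposited signal than the genes did. The coding sequences of the 80 coding genes were matched to the transcripts of the genes in the table outside these 80. A match needed an identity of at least 90% over at least 50% of the coding sequence. The 80 genes were not matched to one another, so coding paralogs among them are not counted as copies. The search found 319 copies of 76 genes, 308 of them annotated as pseudogenes and 11 as coding. In Control the copies' group means summed to 283783 and those of the 80 genes to 191589, so copies held 59.7% of the joint sum. That share was 59.7% in Aβ and 59.5% in Aβ+DFMO. For 52 of the 80 genes the copies held over 50% of the joint Control mean, and for 18 over 90%. With the limits raised to an identity of 97% and a coverage of 90%, the share in Control was 59.0%. Among the genes for which no copy was found within these limits were Rpl8, Rpl41 and Rplp2.

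How alike gene and copy are can be read from Rpl3 and Rpl13, shown because both genes are called below and their copies are not. Rpl3, a protein near the peptidyl transferase centre, lies at chr15:80077791-80091868 in GRCm38, and its copy with the highest Control mean, the pseudogene Rpl3-ps1, at chrX:13202571-13203780. Over 1209 aligned coding bases they differ at 2. Their first 75 coding bases, the length of 1 read, are printed here from the GENCODE transcripts, 5′ to 3′, with the base that differs in capitals.

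Rpl3: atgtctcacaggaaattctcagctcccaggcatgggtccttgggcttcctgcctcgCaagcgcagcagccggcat

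Rpl3-ps1: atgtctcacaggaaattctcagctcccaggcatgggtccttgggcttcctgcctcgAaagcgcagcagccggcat

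Rpl13, at chr8:123102350-123105244, and its pseudogene copy Gm12918, at chr4:10848420-10849055, did not differ over 633 aligned coding bases, and their first 75 bases are therefore the same.

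Rpl13 and Gm12918: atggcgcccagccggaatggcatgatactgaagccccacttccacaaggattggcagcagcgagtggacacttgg

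For 24 of the 80 genes, every stretch of 75 coding bases was also found in at least one copy, and over all 80 the median share of such stretches was 80.8%. A read that falls inside such a stretch carries no base that separates gene from copy, unless its mate does. No source used here states how the authors' counting assigned such reads, so transcription of a copy and misassigned reads of the gene cannot be told apart. For each coding gene the values below are therefore given alone and, where it matters, as the sum of the gene and its copies.

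**Figure D1:**
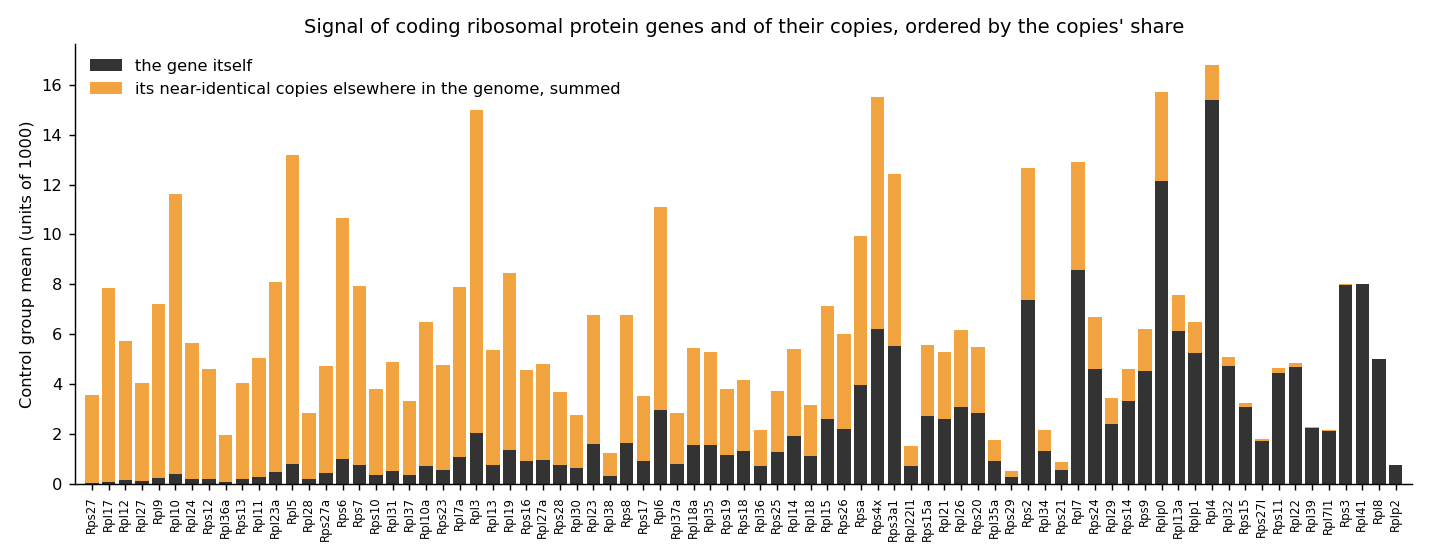
Control group means (axis in units of 1000, bars from 0) of coding ribosomal protein genes (dark) and the summed means of their near-identical copies (orange), ordered from left to right by the copies' share. Copies make up over 90% of the bar for the 18 genes at the left, from Rps27 to Rps10. For Rplp2, Rpl8 and Rpl41 at the right the search found no copy.

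The deposited Control mean per kb of transcript ran from 62.5 for Rps27 to 18318 for Rpl41, with a median of 1484 over the 86 genes, although the proteins enter the ribosome in near-equal amounts. Length, and GC content below, are those of 1 transcript per gene. It was long for Rps15a (5179 bases, coding part 390) and Rps20 (3706 bases, coding part 357), which lowers their values per kb. Of the genes for which no copy was found, Rpl41 and Rpl8 (5867) stood above the median level and Rplp2 (769) below it. For Rpl41 the search could not count a copy as long as its own transcript. Its coding part has 75 of 437 bases, and a match had to cover at least 25% of the copy's own transcript. Rpl41, which encodes the smallest ribosomal protein, had 18318 units per kb in Control, 19764 in Aβ and 23258 in Aβ+DFMO. The stalk protein gene Rplp1 followed with 10557 units per kb in Control, then Rpl4 with 10010.3 and Rpl32 with 9161. At the other end stood 7 genes with a mean over the 3 groups under 200: Rps27, Rpl32l, Rpl17, Rpl12, Rps3a3, Rpl36a and Rpl27. The 5 of them with copies had 95.3% to 99.4% of their joint Control mean in those copies. Rps27 itself had group means of 21.5, 24.9 and 15.9 in Control, Aβ and Aβ+DFMO, and its copy Rps27rt had 3544, 3588 and 3196. Not divided by length, the Control means of the 80 coding genes alone ran from 21.5 (Rps27) to 15396 (Rpl4), and those of each gene summed with its copies from 531 (Rps29) to 16796 (Rpl4).

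**Figure D2:**
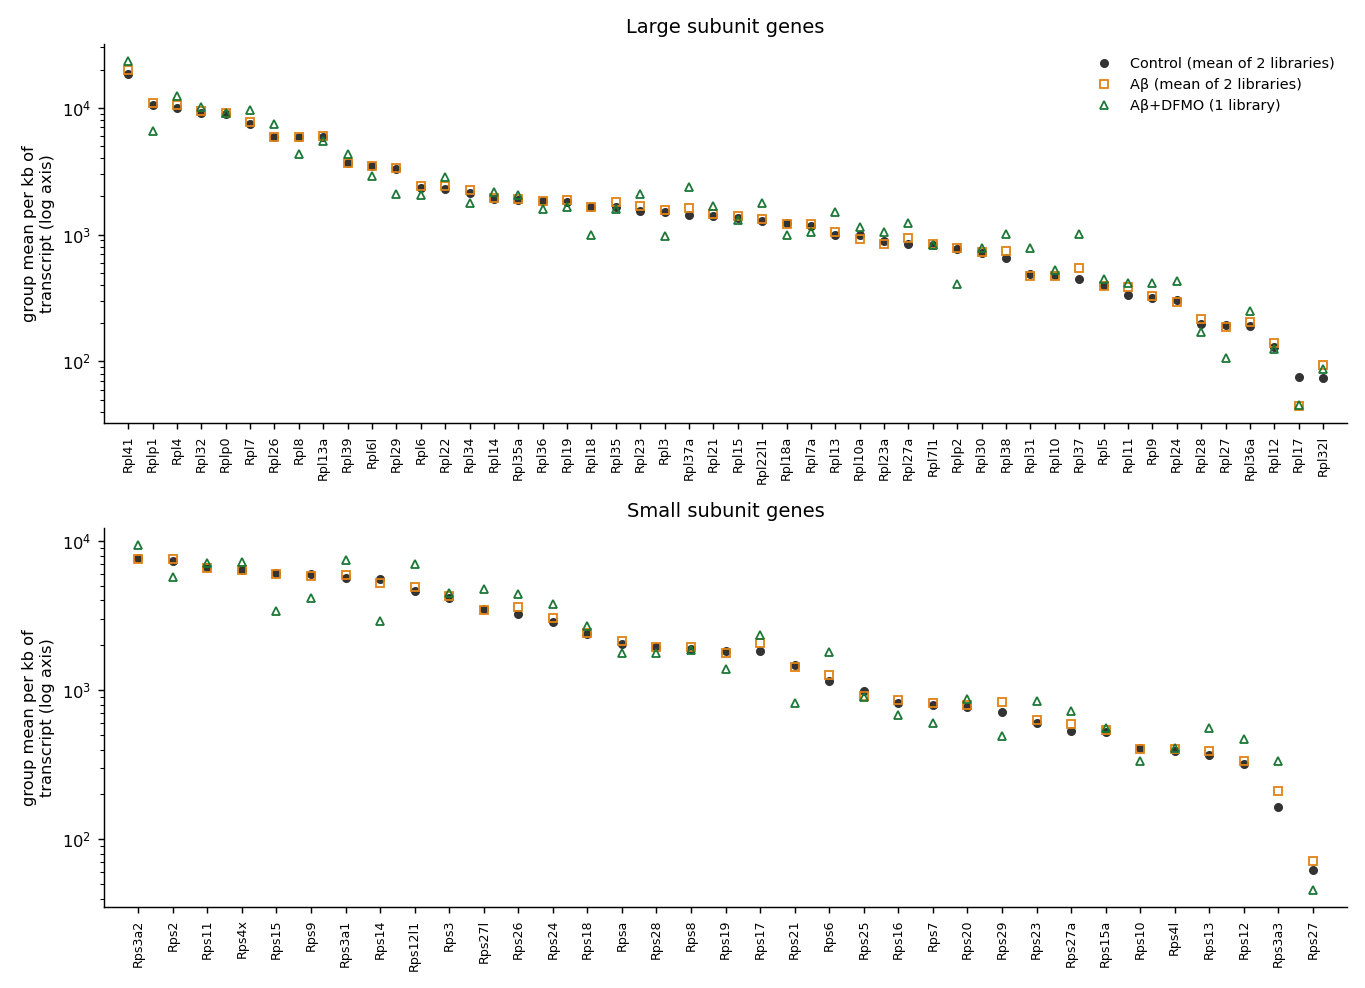
Authors' group means per kb of transcript (log axis) of large subunit genes (top) and small subunit genes (bottom), ordered by the Control level. Control circles and Aβ squares mostly overlap, and Aβ+DFMO triangles lie above them for Rpl37 and Rpl31 and below them for Rplp1, Rplp2, Rps14 and Rps15.

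The 86 genes together held 0.667% of the summed signal in Control, 0.706% in Aβ and 0.705% in Aβ+DFMO. Large subunit genes made up 57.0%, 57.4% and 57.9% of that sum, in the same order. The mitochondrial rRNA genes, which are no part of the cytosolic ribosome, took 0.707%, 0.107% and 1.12% of the signal in the 3 groups. Leaving them out of the total gave 0.671%, 0.707% and 0.713% for the ribosomal protein genes, and their part in the result was not tested.

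No ribosomal protein gene was called between Aβ and Control. In the authors' deposited table, 0.287% of all genes had a DESeq2 adjusted p under 0.05 in that comparison, and 0 of the 86 did. At an unadjusted p under 0.05 the count was again 0 of 86, against 324 of the 18783 genes. The median deposited log2 ratio, Aβ minus Control, was 0.05 over the 86 genes and 0.00 over all genes, and 63 of the 86 (73.3%) were above 0, against 51.1% of all genes. Large and small subunit genes had the same median, 0.05. The quartiles of the 86 genes were -0.005 and 0.08, and the median implied standard error of a single gene, its log2 ratio divided by the normal deviate of its p, was 0.12.

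Rpl37, a large subunit protein with a zinc finger, had the smallest p of the 86 genes in this comparison. Its deposited means were 371 in Control and 453 in Aβ, a log2 ratio of 0.29 (implied standard error 0.16, unadjusted DESeq2 p 0.0776). Rps26, a protein at the mRNA exit channel, had deposited means of 2218 and 2466 and a log2 ratio of 0.15. Rpl37a, another zinc finger protein of the large subunit, went from 789 to 901 (0.19). Rps25, a protein used by viral internal ribosome entry sites, had the lowest log2 ratio of the small subunit, with 1262 and 1164 (-0.12). Their deposited DESeq2 adjusted p was 1.00.

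The lowest log2 ratio of the 86 genes, -0.76 for Rpl17, rested on deposited means of 58.6 in Control and 34.6 in Aβ. The Rpl17 family including 10 copies had a log2 ratio of 0.01. Over the 80 coding genes summed with their copies, log2 ratios of Aβ minus Control ran from -0.05 to 0.14, and 73 of 80 were above 0 with a median of 0.04. The sums carry no error or test. Microglial markers moved in this comparison: 7 of 12 were called lower in the authors' deposited table, against 0.287% of all genes called. The summed level of the list went from 32486 to 23436. The part of that change in the ribosomal protein values was not tested. In bulk RNA, fewer cells of a type and less RNA per cell cannot be told apart.

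With DFMO, single ribosomal protein genes were called in both directions. Per the authors' deposited values, 9.18% of all genes were called between Aβ+DFMO and Aβ (DESeq2 adjusted p under 0.05), 4% higher and 5.18% lower in Aβ+DFMO. Of the 86 ribosomal protein genes 20 (23.3%) were called, 9 higher and 11 lower. Abundant genes were called more often in general: among the 6299 genes whose Aβ mean reached 1000 the share was 20.6%, and among the 50 ribosomal protein genes above that mean it was 14 of 50 (28%). The median log2 ratio of the 86 genes, Aβ+DFMO minus Aβ, was 0.10, against 0.01 over all genes, and 48 of 86 were above 0. Large subunit genes were called 5 times higher and 6 times lower out of 50, and small subunit genes 4 times higher and 5 times lower out of 36.

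The stalk of the large subunit, the lateral arm that recruits elongation factors, has a base protein and a pair of tip proteins. The base protein Rplp0 had deposited means of 12143 in Control, 12302 in Aβ and 12254 in Aβ+DFMO. Those 3 values differ by less than the implied standard error, with a log2 ratio of -0.01 (implied standard error 0.10) for DFMO. The acidic tip protein gene Rplp1 had 5268, 5438 and 3266, and fell by 0.74 on the log2 scale (implied standard error 0.13, DESeq2 adjusted p 4.83e-06). Its partner Rplp2 had 741, 757 and 396, and fell by 0.94 (implied standard error 0.26, DESeq2 adjusted p 0.00789). For both tip genes the Control and Aβ means were close and the Aβ+DFMO library was low. The GC content was 53.0% for the Rplp0 transcript, 57.3% for Rplp1 and 55.0% for Rplp2. With the GC trend of the whole table taken out, both calls were lost: Rplp1 had -0.33 (adjusted p 0.287) and Rplp2 -0.66 (adjusted p 0.278) by the recomputed normal test on the DESeq2 ratios. The difference between the tip genes and Rplp0 was not tested.

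In the small subunit, Rps15, a protein of the head, and Rps14, a protein of the platform, had the next smallest p-values. Rps15 had deposited means of 3077 in Control, 2996 in Aβ and 1702 in Aβ+DFMO, and its log2 ratio for DFMO fell by 0.82 (implied standard error 0.15). Rps14 had 3312, 3136 and 1731 and fell by 0.86 (implied standard error 0.17). Rps21 fell by 0.81 on about 43.1 reads in the Aβ+DFMO library. Rps9 and Rps2, proteins at the mRNA entry side, fell by 0.49 and 0.42. The other lower calls were large subunit genes: Rpl18 (-0.71), Rpl29 (-0.67), Rpl3 (-0.67) and Rpl8 (-0.43), the last of which encodes a protein of the peptidyl transferase region. Of these lower calls, those of Rps14 and Rpl3 remained with the GC trend taken out.

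The higher calls were led by Rpl37, with deposited means of 371 in Control, 453 in Aβ and 849 in Aβ+DFMO, a log2 ratio for DFMO of 0.90 (implied standard error 0.24, DESeq2 adjusted p 0.00378). Rpl31, a protein at the exit of the peptide tunnel, had 517, 494 and 827 (0.74). Then came Rpl37a (0.55), Rpl13 (0.54) and Rps27l (0.47). The latter encodes a paralog of Rps27 and is a known p53 target. Rps3a1 and Rpl7 had log2 ratios of 0.32 and 0.31. The remaining 2 higher calls were pseudogenes, Rps12l1 (0.52) and Rps3a2 (0.32). For each of the 9 the Aβ+DFMO mean was the highest of the 3 groups. Rpl37, Rpl13 and Rps12l1 were still called with the GC trend taken out.

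Several genes with named roles were not called. Rps6, the target of S6 kinases, had deposited means of 1006, 1119.8 and 1573 and a log2 ratio of 0.49 for DFMO (DESeq2 adjusted p 0.0708). Rpl5 (0.19) and Rpl11 (0.10), which bind Mdm2 together with 5S rRNA, had adjusted p-values of 0.703 and 0.920 in the deposited table. Rps3, at the mRNA entry channel, had 7959, 8146 and 8599 (0.08). Rpsa, also known as the laminin receptor precursor, had 3953, 4154 and 3439 (-0.27). Rps27a, made as a fusion with ubiquitin, had 419.6, 470.5 and 577 (0.30), and Rpl10, one of the last proteins to join the large subunit, had 384, 379.8 and 422 (0.15). Rpl41 went from 8637 in Aβ to 10164 (0.23, DESeq2 adjusted p 0.179).

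Rps3a1 and its pseudogene copy Rps3a2 were both called higher (0.32 each, DESeq2 adjusted p 0.0383 and 0.0483). Rpl22 and Rpl22l1 had deposited log2 ratios for DFMO of 0.23 and 0.42, neither called. Rpl7 was called higher (0.31), and Rpl7l1 had -0.03. Rps27 rested on about 2.13 reads in the Aβ+DFMO library, so nothing can be read from its -0.65 beside the 0.47 of Rps27l. Rps4x (0.17) and the pseudogene Rps4l (0.03) were not called. Differences between paralogs were not tested.

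Aβ+DFMO against Control has no deposited test and shares its libraries with both other comparisons. Its log2 ratios of the authors' group means ran from -0.94 for Rps14 to 1.20 for Rpl37, with a median of 0.13.

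Adding copies changed the size of some of these calls in both directions. Of the 7 coding genes called higher, 5 had over 50% of their joint Control mean in copies, and of the 11 called lower, 2 had (over all 80 coding genes, 52). The Rpl3 gene went from 2103 in Aβ to 1326 in Aβ+DFMO, while Rpl3-ps1 had 12966 and 13117. Gene and copies together had a log2 ratio of -0.07 in place of -0.67. Rpl13 went from 812 to 1179 and its identical copy Gm12918 from 4490 to 3550.0, and their family as a whole had -0.17 in place of 0.54, the only called coding gene whose sign turned. Rpl37 had 453 and 849, its copy Rpl37rt 3120.1 and 3094, and the sum 0.14 in place of 0.90. Rpl31 had 0.12 in place of 0.74, and Rpl37a 0.06 in place of 0.55. The other coding genes called higher changed little with copies. Rps27l had 0.43 in place of 0.47, Rps3a1 0.33 in place of 0.32 and Rpl7 0.27 in place of 0.31. For Rpl13, Rpl37, Rpl31 and Rpl37a the gene was high in the Aβ+DFMO library, while its most abundant copy had a log2 ratio of -0.34 (Gm12918), -0.01 (Rpl37rt), 0.03 (Rpl31-ps8) and -0.24 (Gm4149), and none of these copies was called.

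Among the lower calls, Rpl29 went from -0.67 alone to -0.27 with copies and Rpl18 from -0.71 to -0.46, beside the change of Rpl3. For the other lower calls the log2 ratio with copies was -1.003 for Rps21, -0.82 for Rplp1, -0.75 for Rps15, -0.74 for Rps14, -0.53 for Rps9 and -0.33 for Rps2, and Rplp2 (-0.94) and Rpl8 (-0.43) had no copy to add. Gm10073, a copy of Rplp1 annotated as coding, was itself called lower in the authors' deposited table, from 1143 in Aβ to 459 in Aβ+DFMO (-1.32, DESeq2 adjusted p 8.76e-06). The Rps12 family had the highest joint ratio, 0.52. Its gene was not called (197 and 274), but its identical copies Rps12-ps3 (2825 and 4084) and Rps12l1 (1974 and 2821) were called higher. Of the 319 copies, 8.15% were called, 11 higher and 15 lower, near the 9.18% of all genes. Over the 80 coding genes the interquartile range of the log2 ratio for DFMO was 0.57 for the gene alone and 0.42 with copies. The medians were 0.10 and 0.02. That range also fell with abundance: it was 0.66 over all genes and 0.45 over those whose Aβ mean reached 1000. The part of abundance in the narrower range with copies was not tested.

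**Figure D3:**
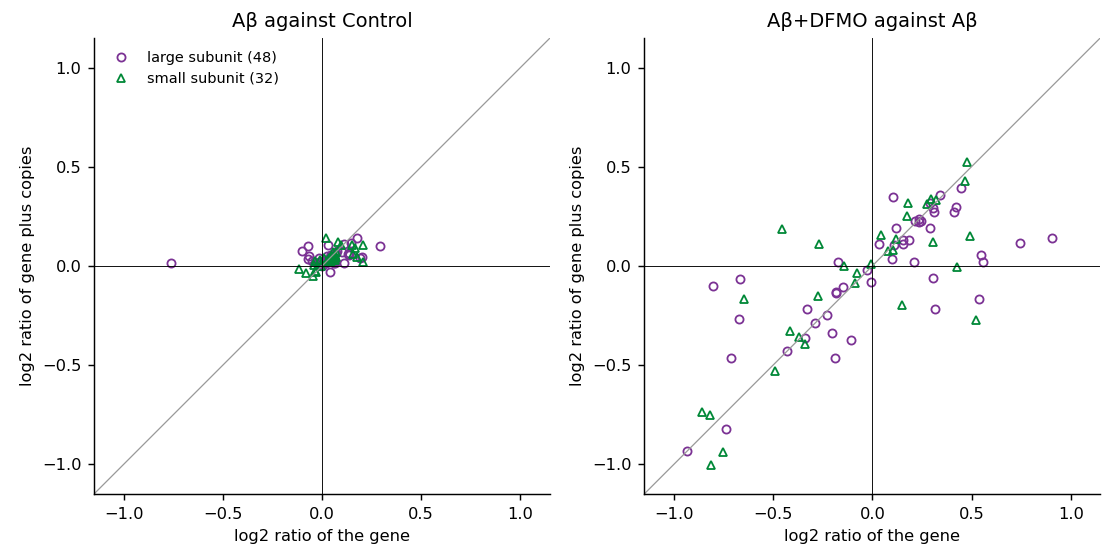
Log2 ratio of coding genes alone (horizontal) and summed with their near-identical copies (vertical), for Aβ against Control (left) and Aβ+DFMO against Aβ (right), with large subunit genes as circles, small subunit genes as triangles and a grey line where both are equal. At left the sums span -0.05 to 0.14, and at right the genes with ratios above 0.5 alone, among them Rpl37, Rpl31 and Rpl13, drop to between -0.27 and 0.14 with copies.

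The direction of the calls for DFMO followed the GC content of the transcript. Transcripts of the 11 genes called lower had a median GC content of 56.5%, and those of the 9 called higher 47.6%. With the 86 genes split by GC content into 3 sets, 27 of the 29 genes of the lowest set had a deposited log2 ratio above 0, with 7 called higher and 0 lower. In the highest set 9 of 28 were above 0, with 1 called higher and 9 lower. Spearman's rho between GC content and log2 ratio was -0.58 over the 77 ribosomal protein genes whose Aβ mean reached 200. Over all 11660 such genes it was -0.71, so the relation is one of the whole table. Both are descriptions: the genes share libraries, and genes are not replicates. For Aβ minus Control, rho over the same 77 genes was -0.24. With copies added to each gene, rho between the GC content of the coding sequence and the log2 ratio for DFMO was -0.72 over 80 families, against -0.56 for the genes alone.

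With the trend taken out of the log2 ratio for DFMO by a running fit over all genes, 6 ribosomal protein genes (6.98%) were called at 0.05, against a background of 1.56% of all genes (0.84% higher and 0.721% lower). These p-values come from the residual and the implied standard error, adjusted by Benjamini-Hochberg over 18459 genes. Abundant genes were again called more often. The share was 2.32% of all genes whose Aβ mean reached 200 and 3.57% of those whose Aβ mean reached 1000. Among the 77 ribosomal protein genes whose Aβ mean reached 200 it was 7.79%. Rpl13 (0.93), Rpl37 (0.85), the pseudogene Rps12l1 (0.58) and Rpl41 (0.58) were higher, and Rps14 (-0.60) and Rpl3 (-0.56) lower. Rpl41, with GC content 56.3%, was not called in the deposited test. The log2 ratio of Rpl8 was 0.01 without the trend. Of the 6, Rpl13, Rpl37 and Rpl3 are genes with 85.5% to 88.9% of the joint Control mean in copies, and Rps14 had 28.4% there. The median of the 86 genes was 0.16 without the trend, against 0.02 over all genes with a GC value.

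**Figure D4:**
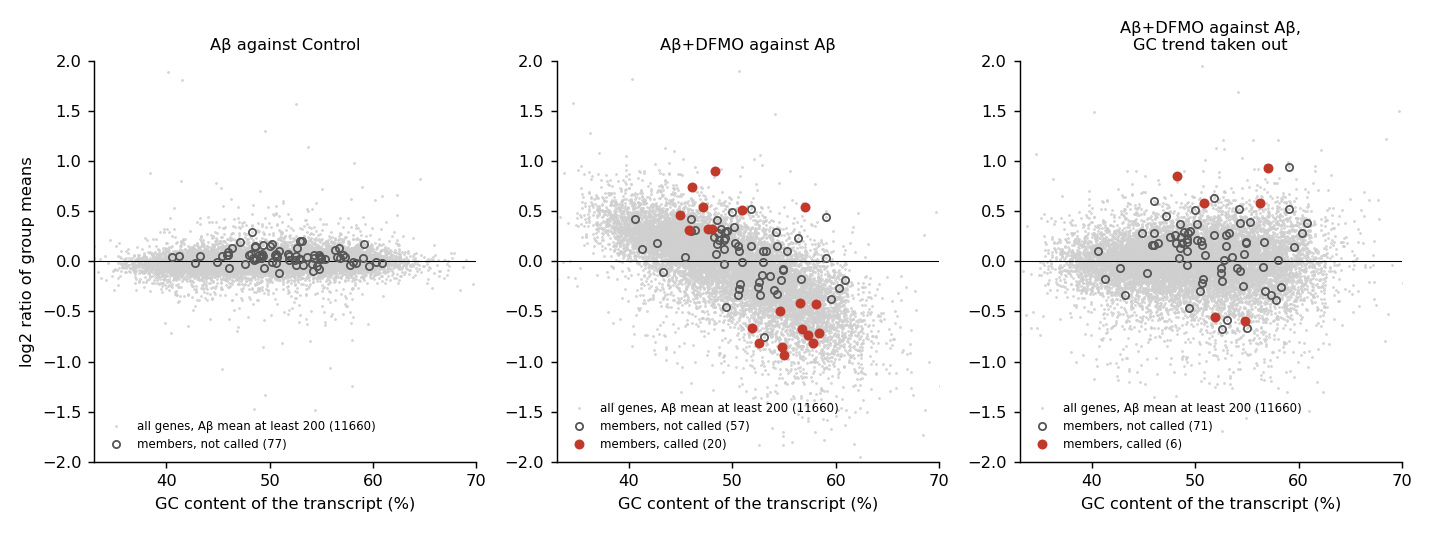
Log2 ratio of group means against the GC content of the transcript (percent) for Aβ against Control (left), Aβ+DFMO against Aβ as deposited (middle) and the latter with the GC trend taken out (right). Grey points are the 11660 genes whose Aβ mean reached 200, open circles ribosomal protein genes and red circles those called: 0, 20 and 6 from left to right.

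**Figure D5:**
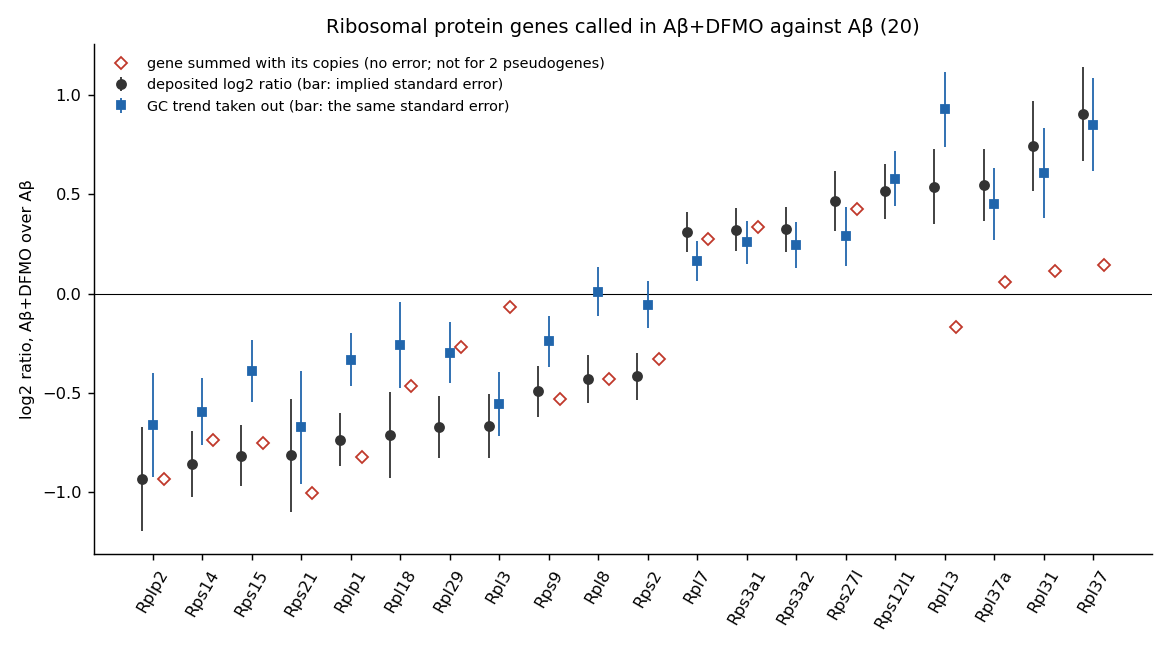
The 20 ribosomal protein genes called in Aβ+DFMO against Aβ, with the deposited log2 ratio (circles), the ratio with the GC trend taken out (squares), both with the implied standard error as bars, and the ratio of the gene summed with its copies (diamonds, no error). Lower calls stay below 0 in circles and diamonds, and the diamonds of Rpl13, Rpl37a, Rpl31 and Rpl37 lie between -0.17 and 0.14.

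Other genes of the translation pathway are given from lists by role. In Aβ against Control none of their members was called, against 0.287% of all genes. The counts for Aβ+DFMO against Aβ stand beside 9.18% called of all genes. Among genes whose Aβ mean reached 1000 that share was 20.6%. In Aβ+DFMO against Aβ, the authors' deposited table called 4 of 20 elongation factors and other TOP mRNAs higher and 1 lower. Eef2, the factor that moves the ribosome along, fell by 0.39, from 34398 to 26316, and Tpt1, a TOP mRNA that encodes translationally controlled tumour protein, went from 6806 to 9231 (0.44). Of 36 initiation factors, 5 were called higher, among them Eif4a2 (0.66) and Eif4e (0.43), and Eif4h (-0.40) was called lower. Eif5a, which carries the polyamine-derived hypusine, was called lower with deposited means of 6689.9 in Control, 6756 in Aβ and 5219 in Aβ+DFMO (-0.37, DESeq2 adjusted p 0.0291). The other 3 genes of eIF5A and its modification (Eif5a2, Dhps and Dohh) were not called. Without the GC trend Eif5a had -0.10.

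Among 61 ribosome assembly factors, 2 were called higher (Pno1, 0.56, and Npm1, 0.33) and 0 lower. Of 21 genes of RNA polymerase I, which makes rRNA, Taf1d (0.70) was called higher. Of 14 dedicated chaperones and importers of ribosomal proteins, Ipo7 (0.32) was called higher and Aamp (-0.47) lower. In the list of mTOR and TOP control, 5 of 23 were called higher, with Tial1 (0.49) and Rps6kb1 (0.44) among them, and Akt1s1 (-0.53) lower. Of 15 genes of ribosome quality control, Mdm2 (0.48), Abce1 (0.43) and Nemf (0.39) were called higher. Of 6 ribosomal protein genes outside the naming rule 0 were called, with Fau lowest (-0.64, DESeq2 adjusted p 0.0758). These counts too stand beside the 9.18% of all genes and the 20.6% of those whose Aβ mean reached 1000. After removal of the GC trend, Eif4a2 and Tpt1 were the only genes of these lists that were still called. The share of all genes was then 1.56%.

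Markers of other cells moved in the comparison with DFMO. Of all genes, 9.18% were called there, and 20.6% of those whose Aβ mean reached 1000. After removal of the GC trend the share of all genes was 1.56%. By the authors' deposited test, 9 of 11 oligodendrocyte lineage markers were called lower, and their summed level went from 47730.1 in Control and 47215 in Aβ to 25861 in Aβ+DFMO. Of 12 microglial markers 4 were called lower (summed level 23436 in Aβ and 17813 in Aβ+DFMO), and of 10 astrocyte markers 4 were lower (185843 and 146536). Of 8 fibroblast and mural markers 2 were higher (82591 and 96201). Most of that last sum was Acta2 (66644 and 81013), and the median log2 ratio of the list was -0.13. Of 6 neuronal markers 1 was higher and 1 lower, and of 4 endothelial markers 0 were called. No measured marker of these lists except 1 of endothelium was under 10 units in Aβ. After removal of the GC trend, 3 of the 11 oligodendrocyte lineage markers were called lower, with a median log2 ratio of -0.776 in place of -0.995, as were 1 of the microglial and 3 of the astrocyte markers. In the same fit 3 of the fibroblast and mural markers were called higher, and the median of that list turned from -0.13 to 0.22. Of the neuronal markers 1 was called higher and 0 lower. The part of these changes in the ribosomal protein values was not tested.

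The start sites were searched for the tract that gives TOP mRNAs their name. RefSeq promoter entries (GRCm38.p6) matched 61 of the 86 genes. A run of C followed by at least 5 pyrimidines (C or T), on the sense strand, within 10 bases before to 20 bases from the annotated start, was present in an entry of 36 of 61 genes (59%). It was present for 26.5% of the 12286 other genes of the table with an entry. Of the 6 genes called lower that have an entry 5 held it, of the 6 called higher 2, and of the 49 others 29. The match is a description of these letters only. Windows of 30 bases are shown for genes with a call, with the tract in capitals: Rplp2 (chr7:141447641-141447670, plus strand), Rpl18 (chr7:45718061-45718090, plus strand) and Rps9 (chr7:3704031-3704060, plus strand) from the lower calls, and Rpl31 (chr1:39367841-39367870, plus strand) and Rpl37 (chr15:5116603-5116632, plus strand, no tract) from the higher ones.

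Rplp2: cagcgtCTTCCTTTCgccgccggacgccgc

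Rpl18: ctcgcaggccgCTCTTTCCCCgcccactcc

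Rps9: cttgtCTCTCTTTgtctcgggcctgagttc

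Rpl31: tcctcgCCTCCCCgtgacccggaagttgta

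Rpl37: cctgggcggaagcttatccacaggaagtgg

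The tract of Rplp2 begins 4 bases before the annotated start and is 9 bases long, and that of Rpl18 is 10 bases long, the longest of the 5 windows. The 5 windows do not stand for all calls: among those not shown, Rps15, called lower, held no tract, and Rps27l, called higher, held one. With 6 genes on each side no more than the counts given before the windows can be read.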

How the data were processed

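The deposited table gives, per the file headers, a least-squares mean of normalized signal per gene and group, and for 2 comparisons a ratio, a log2 ratio, a p-value and an adjusted p-value (Benjamini-Hochberg over 18783 genes, as checked). Per the submitters' processing notes, STAR 2.7.3a, Partek, FastQC and DESeq2 were used and the builds mm10 and GRCm39 are named; no source used here states the counting rule. A further deposited file gives reads per library as counts, per the file headers.

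Values per gene and library were not analysed here, so the planned edgeR test was replaced, as designed, by the authors' DESeq2 values, and a gene was called at an adjusted p under 0.05. Groups were taken from the labels. GC content, length and coding sequence came from 1 GENCODE M21 transcript per symbol. The GC trend was a lowess fit (span 0.3, 3 iterations, statsmodels 0.14.6) on genes whose Aβ mean reached 200, tested on simulated data. Copies were found with blastn 2.17.0; a match had to cover at least 25% of the copy's own transcript (4 matches left out) and lie outside the gene (1 left out). The worth of 1 read came from 7316 low values of the Aβ+DFMO group, 80.3% of them whole within 0.05 of a read.

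Named genes are all called members, the highest, lowest and smallest-p members of each comparison and subunit, members with low means, and a set chosen for roles. The members and lists were chosen with earlier results of these data known. Alternatives were centring, GC and length trends, other thresholds, filters, pseudocounts and member rules; the coding-sequence trend, leaving out pseudogenes and adding copies were chosen after seeing the data. 1 gene is counted in the totals and is not reported here by name.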

Additional observations from a re-analysis of the deposited data

How the results depend on the processing

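For Aβ+DFMO against Aβ, the count of 20 ribosomal protein genes called (9 higher, 11 lower) moved to 6 (4 higher, 2 lower) with the GC trend taken out, and likewise to 6 (4 and 2) with GC and length trends and with the GC trend of the coding sequence. At an adjusted p under 0.01 it was 10, 2 of them higher. The fits for GC and for GC and length called Rpl3, Rps14, Rpl13, Rpl37, Rpl41 and Rps12l1, and that for coding GC called Rpl37a and Rps26 in place of Rpl41 and of Rps12l1, which has no coding sequence. The log2 ratio of Rpl8 turned to 0.0093 with the GC trend out and that of Rpl13 to -0.17 with copies added. Rps21 had an adjusted p of 0.0541 when log2 ratios were centred. For Aβ against Control the count stayed at 0 in each alternative, by DESeq2 or the recomputed p. Medians moved by less than the typical implied standard error in each alternative. No paired analysis was possible because values per gene are group means; for the same reason leaving out replicates and other normalizations were not run. Depth limits the Aβ+DFMO group: 4 of the 86 genes had fewer than 10 estimated reads there, with a median of 172.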
